A study of Mus musculus with 6 samples.

Results

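The 107 genes described here encode transporters of sugars, monocarboxylates, organic ions, bile acids, vitamins, peptides and nucleosides. They were chosen by gene name, as the genes of the solute carrier families Slc2a, Slc5a, Slc10a, Slc13a, Slc15a, Slc16a, Slc17a, Slc19a, Slc22a, Slc23a, Slc28a, Slc29a, Slc37a and Slco (numbered 1 to 6). The naming rule used no measured value, but it was set with earlier results of these data known. The array carries 153 probes for them, on 162 of 43379 spots that are not controls, among 41174 probes and 27673 genes in all. The RNA came from kidney explants of CD1 mouse embryos at E13.5, exposed to Scriptaid at 2.0 µg/ml or to Nullscript at the same dose for 6 hours. Scriptaid blocks histone deacetylases (HDACs), and Nullscript is a related compound without that activity, used as the control drug. Paired kidneys received the different drugs in medium with fetal serum, and the sources used here do not give the number of embryos or litters behind a replicate. There were 3 biological replicates, and both drugs of a replicate were hybridised together on 2 Agilent arrays of opposite dye, 3 arrays with Scriptaid in Cy3 and 3 with Scriptaid in Cy5.

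These transporters move small water-soluble molecules across membranes. Facilitators of the Slc2a family let hexoses pass down their gradient, Slc5a carriers pull sugars and other solutes in with sodium, and Slc16a carriers move lactate, pyruvate and related acids, some of them together with protons. In the mature kidney, Slc22a and Slco proteins of the proximal tubule take up drugs, toxins, urate and hormone conjugates, while sodium-coupled carriers reclaim glucose, citrate, vitamins and nucleosides from the filtrate. At E13.5 the mouse kidney is mostly progenitors, ureteric bud and early nephrons, with few mature tubules.

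Replicates 1 and 2 were hybridised on slide 1 and replicate 3 on slide 2. Between 91.5% and 96.5% of the non-control spots per channel were well above background, and kidney progenitor genes such as Six2, Wt1 and Pax2 were above it in both channels on all 6 arrays. The log2 ratios of whole arrays correlated at 0.752 to 0.857 for the pair of a replicate and at 0.871 to 0.943 for arrays with the same dyes. The direction of the ratios is not settled. Of 7 genes that HDAC inhibitors are known to raise in other cells, all 7 passed as lower in the channel labelled Scriptaid (median log2 ratio -1.01), and of 4 genes that they are known to reduce, all 4 passed as higher there (median 1.22). These genes were listed with that outcome already known from earlier results of these data, so that the counts are not an independent check. The drugs are therefore named as the dye fields of the arrays label them, and "higher" and "lower" below mean the channel labelled Scriptaid relative to the channel labelled Nullscript. If these names were exchanged, every sign would turn.

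The promoters of the members with the largest ratios in either direction are shown first, so that their letters can be set beside the ratios below. Which start site the transcripts read by a probe use was not tested. They come from RefSeq on GRCm38.p6 and run from 250 bases before to 50 after an annotated start, written 5′ to 3′ on the gene's own strand. Capitals mark the GC box, searched as GGGCGG and its reverse complement CCGCCC. Slco4a1, the member with the lowest ratio, has the first of its 2 promoters on the plus strand at chr2:180455995-180456294, with 4 boxes.
Slco4a1: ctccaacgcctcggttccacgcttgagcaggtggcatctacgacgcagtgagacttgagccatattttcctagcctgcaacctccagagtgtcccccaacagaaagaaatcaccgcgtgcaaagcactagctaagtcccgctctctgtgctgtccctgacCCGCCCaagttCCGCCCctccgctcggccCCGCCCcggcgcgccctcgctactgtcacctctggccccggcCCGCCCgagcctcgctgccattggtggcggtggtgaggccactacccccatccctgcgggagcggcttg
The Slc2a5 promoter lies on the plus strand at chr4:150119094-150119393 and holds 3 boxes.
Slc2a5: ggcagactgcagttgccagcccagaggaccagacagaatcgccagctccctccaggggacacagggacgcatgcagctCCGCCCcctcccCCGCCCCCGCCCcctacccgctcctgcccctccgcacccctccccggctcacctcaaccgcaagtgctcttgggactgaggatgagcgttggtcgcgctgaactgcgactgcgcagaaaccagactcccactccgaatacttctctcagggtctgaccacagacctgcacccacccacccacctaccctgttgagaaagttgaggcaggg
The Slc16a11 promoter lies on the plus strand at chr11:70213660-70213959, and these letters do not hold the box.
Slc16a11: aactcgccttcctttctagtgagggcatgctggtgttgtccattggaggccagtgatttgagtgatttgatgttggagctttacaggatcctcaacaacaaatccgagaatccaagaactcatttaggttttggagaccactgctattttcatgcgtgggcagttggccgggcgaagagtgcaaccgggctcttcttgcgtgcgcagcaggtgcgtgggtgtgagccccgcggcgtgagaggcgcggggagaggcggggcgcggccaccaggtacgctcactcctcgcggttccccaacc
Slco4c1, the member with the highest ratio, has its promoter on the minus strand at chr1:96872122-96872421, with 1 box.
Slco4c1: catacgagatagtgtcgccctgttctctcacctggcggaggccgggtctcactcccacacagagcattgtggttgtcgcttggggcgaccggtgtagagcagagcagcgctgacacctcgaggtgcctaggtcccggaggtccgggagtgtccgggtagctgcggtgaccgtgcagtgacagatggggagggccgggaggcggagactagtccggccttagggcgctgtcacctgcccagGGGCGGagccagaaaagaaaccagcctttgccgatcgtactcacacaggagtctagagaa
The first of 3 promoters of Slco2b1 lies on the minus strand at chr7:99711291-99711590 and does not hold the box.
Slco2b1: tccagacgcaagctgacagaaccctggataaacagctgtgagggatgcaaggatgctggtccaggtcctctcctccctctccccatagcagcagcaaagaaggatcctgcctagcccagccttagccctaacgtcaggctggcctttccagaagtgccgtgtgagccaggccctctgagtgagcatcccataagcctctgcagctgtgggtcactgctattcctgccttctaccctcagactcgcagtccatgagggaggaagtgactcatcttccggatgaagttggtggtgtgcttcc
The first of 2 promoters of Slc19a1 lies on the plus strand at chr10:77032489-77032788 and holds 2 boxes.
Slc19a1: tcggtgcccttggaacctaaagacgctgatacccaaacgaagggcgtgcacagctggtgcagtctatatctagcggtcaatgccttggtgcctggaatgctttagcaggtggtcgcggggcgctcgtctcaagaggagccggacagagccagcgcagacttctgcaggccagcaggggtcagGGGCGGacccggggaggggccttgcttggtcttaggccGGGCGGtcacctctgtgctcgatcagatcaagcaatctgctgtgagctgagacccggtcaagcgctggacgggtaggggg

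Of the 106 genes with a tested probe, each read by its brightest probe, 16 were higher, 23 were lower and 67 did not pass an adjusted p of 0.05 (limma, Benjamini-Hochberg over all 39405 probes tested). That is 36.8% of the transporter genes, against 45.4% of all 26503 genes read in the same way. By direction, 15.1% of the transporters were higher against 22.2% of all genes, and 21.7% were lower against 23.2% of all genes. The median log2 ratio was -0.01 both for the transporters and for all genes. The largest ratios lay at both ends, with Slco4a1 at -1.38 and Slco4c1 at 1.05, 2 members of the same family. At 1.5-fold or more, 13 of 106 transporters passed (12.3%, 4 higher and 9 lower), against 10.9% of all genes. All 39 that passed had the same sign in the 3 replicates, which adds little, since the call tested the mean of these same replicates. Over single probes, 21 of 147 were higher and 31 lower, against 23.5% and 21.8% of all probes, or 45.2% in either direction. With each array only centred on its median in place of loess, 17 member probes were higher (11.6%) and 44 lower (29.9%). Of all probes, 9306 were then higher (23.6%) and 11634 lower (29.5%). Leaving out replicate 3 left 11 transporter genes higher and 15 lower, against 4175 and 3848 of all genes. The p values test the mean ratio against 0, with the spread between the 3 replicates moderated by limma over all probes. Each SD is that of replicate values already averaged over both dye orientations. In whole explants fewer cells of a type and less RNA per cell cannot be told apart.

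**Figure D1:**
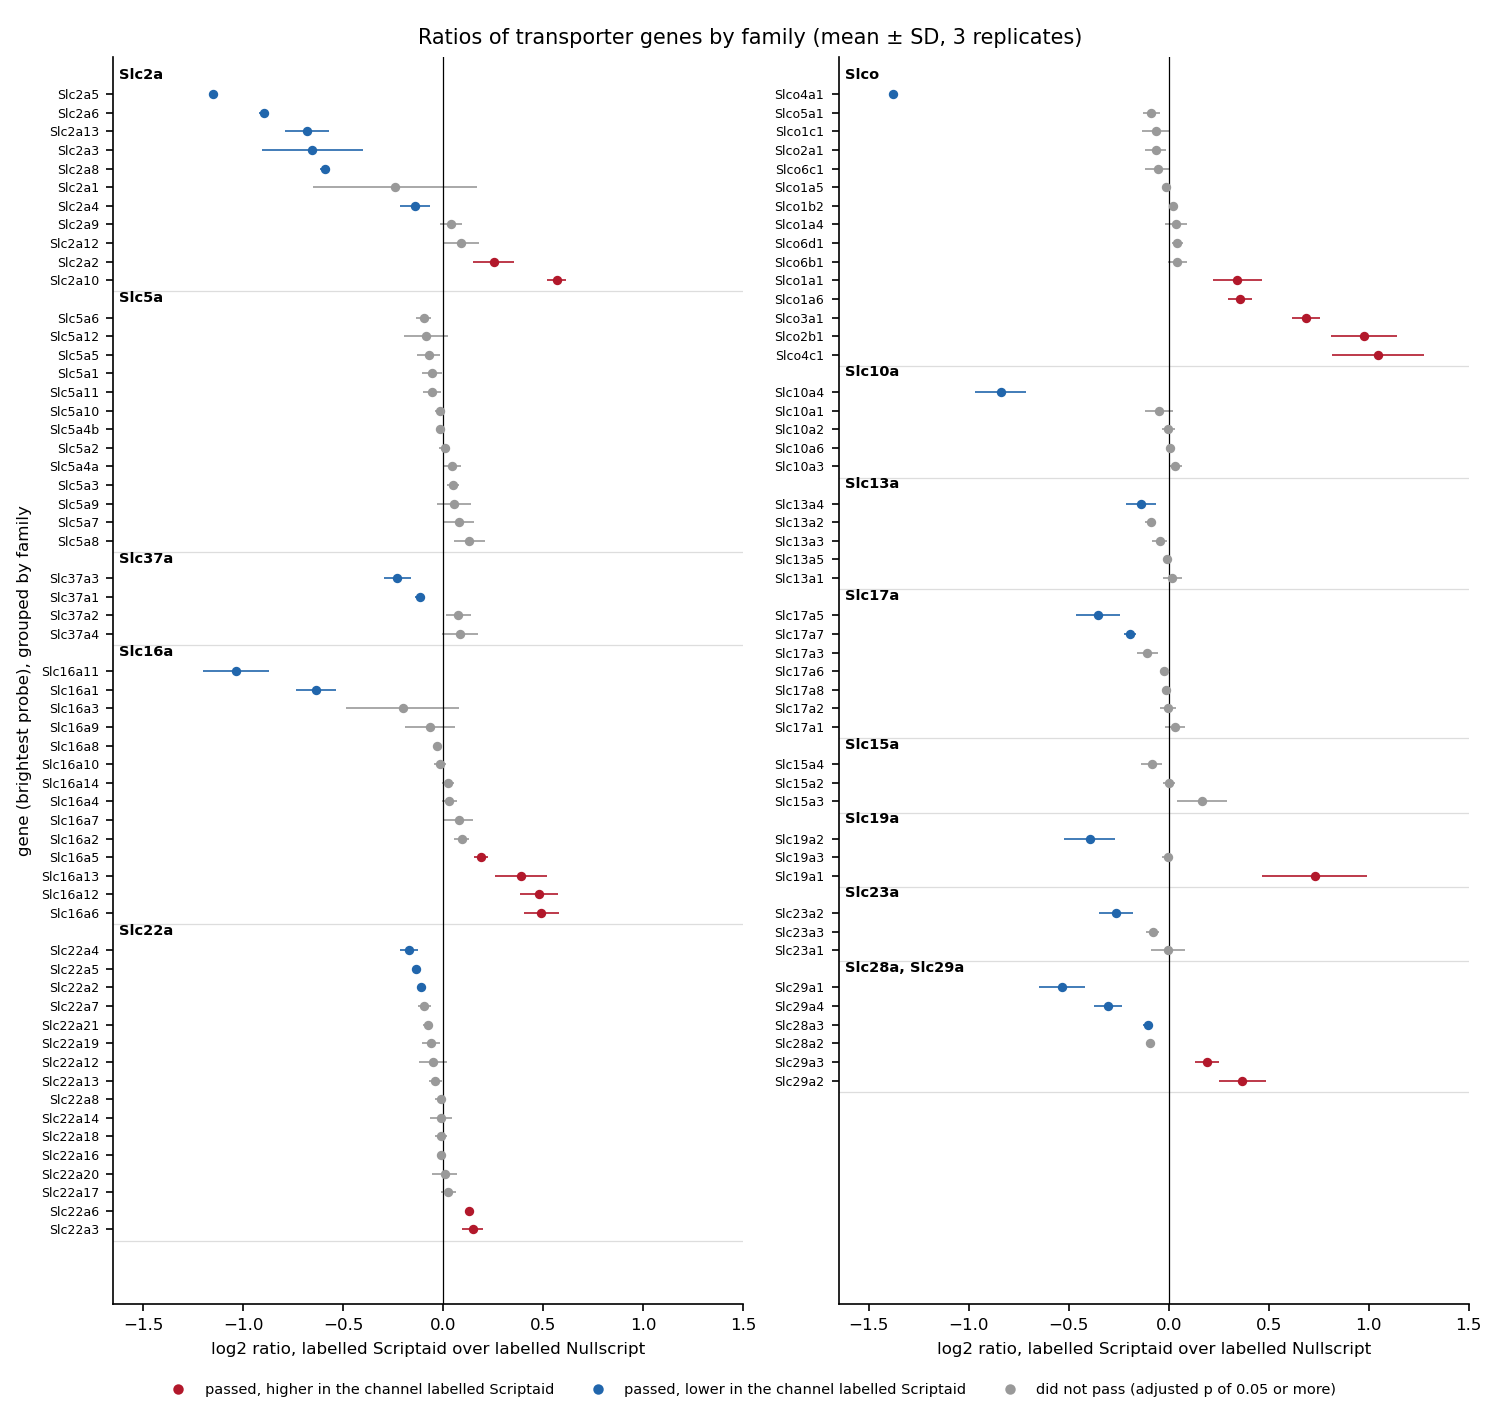
Mean log2 ratio, labelled Scriptaid over labelled Nullscript (horizontal axis) for 105 of the 106 tested transporter genes (vertical axis, grouped by family), with bars for 1 SD over 3 replicates. Red and blue points passed as higher and lower, and grey points did not pass. Slc2a has 6 of 11 genes in blue, Slco has 5 of 15 in red, and all 13 Slc5a genes are grey. Over all genes, 23.2% passed as lower and 22.2% as higher.

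Among the facilitative hexose transporters, 6 of 11 genes were lower, 2 were higher and 3 did not pass, with a median log2 ratio of -0.24. Over all genes, 23.2% were lower and 22.2% higher, with a median of -0.01. Within the family, the fructose transporter gene Slc2a5 differed most. Its log2 intensities in replicates 1, 2 and 3 were 8.05, 7.64 and 7.79 in the channel labelled Scriptaid, against 9.20, 8.80 and 8.93 in the channel labelled Nullscript. The groups did not overlap, and the log2 ratio of -1.15 ± 0.013 (SD, n = 3) made Slc2a5 2.22-fold lower (adjusted p = 0.000184). Slc2a6, which encodes a lysosomal member of the family, read 7.82, 7.64 and 7.67 in the channel labelled Scriptaid, against 8.74, 8.53 and 8.55 in the channel labelled Nullscript. These levels also stood apart in every replicate, and the log2 ratio was -0.90 ± 0.023 (SD, n = 3, adjusted p = 0.000209).

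Slc2a13, which encodes a proton-coupled myo-inositol carrier best known from brain, read 10.42, 10.06 and 10.10 in the channel labelled Scriptaid, against 10.98, 10.84 and 10.82 in the channel labelled Nullscript. Its groups did not overlap, and the log2 ratio was -0.68 ± 0.11 (SD, n = 3, adjusted p = 0.000588). Slc2a3, the high-affinity glucose transporter of neurons, read 9.86, 10.40 and 10.04 in the channel labelled Scriptaid, against 10.76, 10.80 and 10.71 in the channel labelled Nullscript. Its log2 ratio was -0.65 ± 0.25 (SD, n = 3, adjusted p = 0.00515), and replicate 2 had the narrowest gap. Slc2a8, an intracellular glucose transporter gene, was lower by both of its probes. The brighter one read 10.99, 10.92 and 11.15 in the channel labelled Scriptaid, against 11.62, 11.49 and 11.74 in the channel labelled Nullscript, a log2 ratio of -0.59 ± 0.025 (SD, n = 3). The dimmer Slc2a8 probe gave -0.20, and it did not pass without replicate 1 (-0.14), without replicate 3 (-0.21), with median centring (-0.14) or with slide as a block (-0.20).

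The higher side of the family held Slc2a10 and Slc2a2. Slc2a10, the gene mutated in arterial tortuosity syndrome in humans, read 8.52, 8.43 and 8.61 in the channel labelled Scriptaid, against 7.93, 7.92 and 8.01 in the channel labelled Nullscript. The log2 ratio was 0.57 ± 0.048 (SD, n = 3, adjusted p = 0.000367), and no value of either group fell in the range of the other. Slc2a2, the basolateral glucose transporter of liver and proximal tubule, read 10.19, 10.44 and 9.63 in the channel labelled Scriptaid, against 10.02, 10.22 and 9.26 in the channel labelled Nullscript. Its levels overlapped between the channels while each replicate was higher, with a log2 ratio of 0.25 ± 0.10 (SD, n = 3, adjusted p = 0.0113), and without replicate 3 it did not pass (0.19, adjusted p = 0.0534). Slc2a4, the insulin-responsive transporter, passed as lower at -0.14, but without replicate 2 (-0.13) or replicate 3 (-0.11) it did not. It also did not pass with median centring (-0.05, adjusted p = 0.467), with the replicate as a block (-0.14, adjusted p = 0.0561) or with slide as a block (-0.16, adjusted p = 0.0649).

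Slc2a1, the glucose transporter of most embryonic cells, did not pass, and its replicates were the most scattered of the family. It read 13.24, 14.16 and 13.68 in the channel labelled Scriptaid, against 13.85, 13.96 and 14.01 in the channel labelled Nullscript. The ratio was negative in replicates 1 and 3 and positive in replicate 2, and its mean was -0.24 ± 0.41 (SD, n = 3, adjusted p = 0.277). Without replicate 2, Slc2a1 passed as lower (-0.47, adjusted p = 0.0155). It averaged -0.63 on the 3 arrays with Scriptaid in Cy3 and 0.15 on the 3 with Scriptaid in Cy5, and this dye difference did not pass its own test (adjusted p = 0.102).

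**Figure D2:**
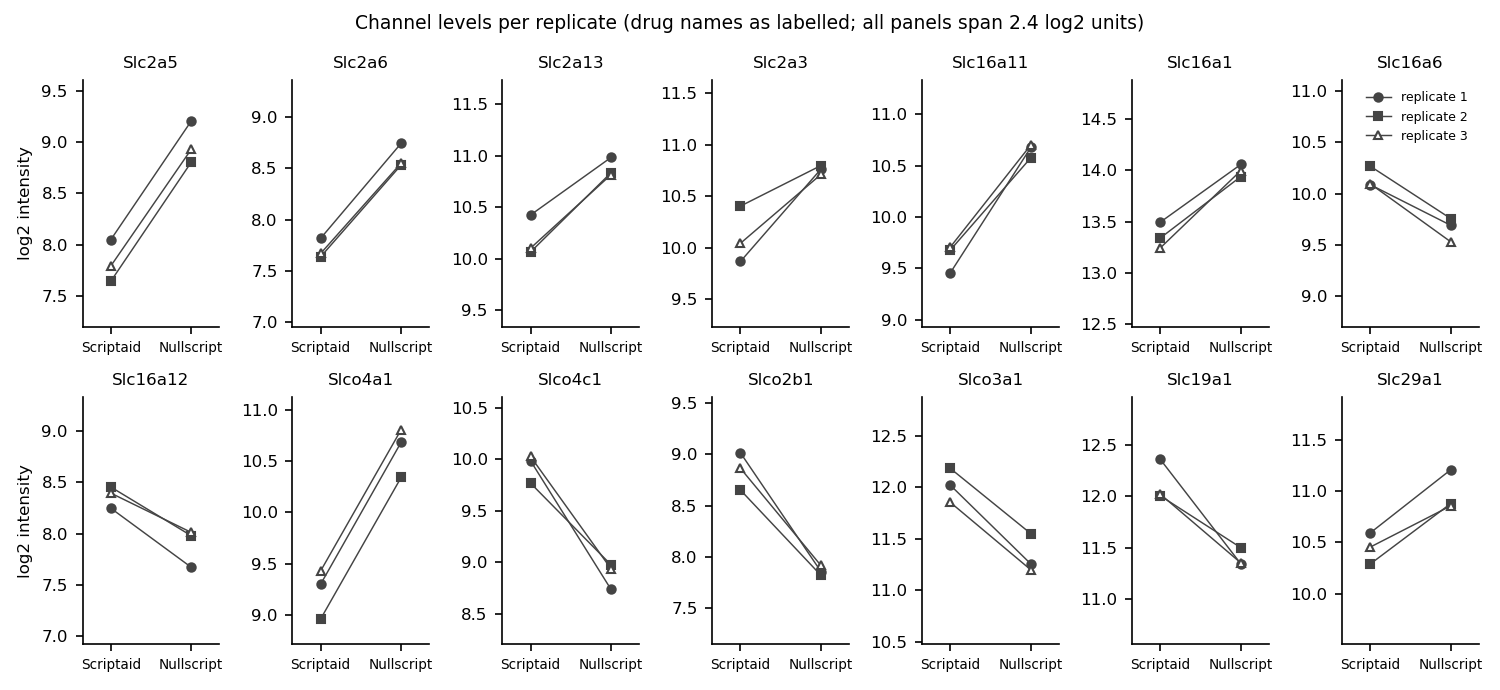
Log2 intensity after normalisation (vertical axis) of 14 transporter genes in the channel labelled Scriptaid (left of each panel) and the channel labelled Nullscript (right), 1 line per replicate. Panels are centred on their own gene, so that slopes and not heights compare across panels. Lines of Slc2a5, Slc2a6, Slc16a11 and Slco4a1 climb to the right in all 3 replicates, and those of Slco4c1, Slco2b1, Slco3a1 and Slc19a1 descend.

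None of the 13 sodium-coupled Slc5a genes passed by its brightest probe, with log2 ratios from -0.10 to 0.13 and adjusted p values from 0.0544 to 0.900. The share passing over all genes was 45.4%. Slc5a1 and Slc5a2, which encode the sodium-glucose cotransporters of the tubule, gave -0.06 ± 0.049 and 0.01 ± 0.029 (SD, n = 3 each), but with median centring Slc5a1 passed as lower (-0.21, adjusted p = 0.0285). Slc5a6, the multivitamin transporter gene, gave -0.10 ± 0.037 (SD, n = 3, adjusted p = 0.0576), and passed with the probes of each gene averaged before the test (adjusted p = 0.0406). The dye term passed for 1 of 147 tested transporter probes, against 3.82% of all probes, and that probe was of Slc5a3, a myo-inositol carrier that gave 0.05 over both dye orientations. By a second probe, Slc5a4b was lower at -0.18, which did not pass without replicate 2 (-0.18) or replicate 3 (-0.15). The sugar phosphate exchangers of the Slc37a family had 2 of 4 genes lower, against 23.2% of all genes. Slc37a3 was lower at -0.23 ± 0.066 (SD, n = 3, adjusted p = 0.00666), but with median centring it gave -0.13 and did not pass (adjusted p = 0.0635). Slc37a1 passed at -0.12, but not once any replicate was left out (-0.11, -0.13 and -0.10 without replicates 1, 2 and 3), with median centring (-0.11) or with slide as a block (-0.12). Slc37a4, which carries glucose 6-phosphate into the endoplasmic reticulum, gave 0.08 ± 0.089 (SD, n = 3, adjusted p = 0.196), and passed as higher with median centring (0.18, adjusted p = 0.0181).

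The monocarboxylate family had calls in both directions, with 4 of 14 genes higher, 2 lower and 8 not passing. Over all genes, 22.2% were higher and 23.2% lower. Slc16a11 had the lowest ratio of the family. It read 9.46, 9.68 and 9.71 in the channel labelled Scriptaid, against 10.68, 10.58 and 10.70 in the channel labelled Nullscript, and the log2 ratio of -1.04 ± 0.17 (SD, n = 3) made it 2.05-fold lower (adjusted p = 0.000463). The main carrier of lactate and pyruvate, Slc16a1, read 13.49, 13.34 and 13.24 in the channel labelled Scriptaid, against 14.06, 13.94 and 14.00 in the channel labelled Nullscript. Its groups were apart, with a log2 ratio of -0.64 ± 0.10 (SD, n = 3, adjusted p = 0.000613). Of its other probes, one gave the same mean of -0.64 and passed, and the other gave -0.19 and did not.

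Slc16a3, which exports lactate from glycolytic cells, did not pass. It read 12.66, 13.26 and 12.99 in the channel labelled Scriptaid, against 13.14, 13.17 and 13.21 in the channel labelled Nullscript, and the mean log2 ratio was -0.20 ± 0.28 (SD, n = 3, adjusted p = 0.205). Like Slc2a1, it was positive only in replicate 2, and without that replicate it passed as lower (-0.35, adjusted p = 0.0306).

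Slc16a6 and Slc16a12 led the higher side of the family. Slc16a6, a ketone body carrier of liver in zebrafish, read 10.09, 10.27 and 10.10 in the channel labelled Scriptaid, against 9.69, 9.76 and 9.53 in the channel labelled Nullscript, and the log2 ratio was 0.49 ± 0.086 (SD, n = 3, adjusted p = 0.000948). Its second probe gave -0.12 and did not pass. Slc16a12, which encodes a creatine transporter of lens and kidney, read 8.25, 8.45 and 8.40 in the channel labelled Scriptaid, against 7.67, 7.98 and 8.01 in the channel labelled Nullscript. The groups did not overlap, and the log2 ratio was 0.48 ± 0.096 (SD, n = 3, adjusted p = 0.00122). Slc16a13 was higher at 0.39 ± 0.13 (SD, n = 3) and Slc16a5 at 0.19 ± 0.034 (SD, n = 3), the second not passing without replicate 3 (0.17, adjusted p = 0.0658) or with median centring (0.11, adjusted p = 0.0626).

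The Slco family, whose proteins take up organic anions without sodium, held both ends of the whole set. Of its 15 genes, 5 were higher, 1 was lower and 9 did not pass, against 22.2% of all genes higher and 23.2% lower. The lower Slco gene was Slco4a1, a carrier of thyroid hormone and bile acids. It read 9.30, 8.96 and 9.43 in the channel labelled Scriptaid, against 10.68, 10.34 and 10.81 in the channel labelled Nullscript. The log2 ratios of the 3 replicates were -1.38, -1.38 and -1.37, with a mean of -1.38 ± 0.0034 (SD, n = 3), a 2.60-fold lower level (adjusted p = 0.000184).

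The other end was Slco4c1, the organic anion carrier of the basolateral proximal tubule. It read 9.99, 9.77 and 10.03 in the channel labelled Scriptaid, against 8.74, 8.98 and 8.94 in the channel labelled Nullscript. The log2 ratio was 1.05 ± 0.23 (SD, n = 3), 2.07-fold higher (adjusted p = 0.000939), and its second probe passed as well at 0.90. Slco2b1, which carries steroid sulfates, read 9.01, 8.65 and 8.86 in the channel labelled Scriptaid, against 7.86, 7.82 and 7.92 in the channel labelled Nullscript, and the log2 ratio was 0.98 ± 0.16 (SD, n = 3, adjusted p = 0.00052). Slco3a1, a broadly expressed carrier of prostaglandins and other anions, read 12.02, 12.19 and 11.86 in the channel labelled Scriptaid, against 11.26, 11.55 and 11.20 in the channel labelled Nullscript, and the log2 ratio was 0.69 ± 0.071 (SD, n = 3, adjusted p = 0.000335). For each of these 3 genes the lowest value in the channel labelled Scriptaid exceeded the highest in the channel labelled Nullscript. Slco1a1 and Slco1a6, rodent carriers of the liver and kidney, were higher at 0.34 ± 0.12 and 0.36 ± 0.058 (SD, n = 3 each). The Slco1a1 probe was well above background on 6 arrays in the channel labelled Scriptaid and on 1 in the channel labelled Nullscript, so that it was tested only through the channel where it was higher. Its ratio was 1.49 from the scanner's processed signals and 0.11 with median centring, where it did not pass, and that of Slco1a6 was 0.54 from the processed signals. The prostaglandin transporter Slco2a1 did not pass by its brightest probe (-0.07), while its dimmer probe gave 0.56 ± 0.077 (SD, n = 3, adjusted p = 0.00057).

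The Slc22a family of organic cation, anion and carnitine carriers had small ratios by their brightest probes. Of 17 genes, 2 were higher, 3 were lower and 12 did not pass, with no brightest probe beyond 0.17 in either direction. The shares over all genes were 22.2% higher and 23.2% lower. Slc22a6, the organic anion exchanger of the basolateral proximal tubule, read 9.29, 9.50 and 9.23 in the channel labelled Scriptaid, against 9.17, 9.36 and 9.1 in the channel labelled Nullscript, a log2 ratio of 0.13 ± 0.011 (SD, n = 3). The channels overlapped for Slc22a6 while every replicate was higher by a like amount. The cation carrier Slc22a3 was higher at 0.15, by a probe well above background on 6 arrays in the channel labelled Scriptaid and on 1 in the channel labelled Nullscript, so that it was tested only through the channel where it was higher. Slc22a4 and the carnitine transporter Slc22a5 were lower at -0.17 and -0.14. The renal cation carrier Slc22a2 was lower at -0.11. From the scanner's processed signals Slc22a3 gave 0.46 and Slc22a4 -0.35, and both passed.

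None of these 5 Slc22a calls held in all fits of 2 replicates. Without replicate 3 the ratios were 0.13 for Slc22a6, 0.15 for Slc22a3, -0.16 for Slc22a4, -0.13 for Slc22a5 and -0.11 for Slc22a2, and none of them passed. Without replicate 2, Slc22a6 (0.12), Slc22a4 (-0.16), Slc22a5 (-0.13) and Slc22a2 (-0.12) did not pass, and without replicate 1, Slc22a3 (0.12) and Slc22a2 (-0.11) did not. With slide as a block, Slc22a4 alone of the 5 passed, and with the replicate as a block Slc22a2 did not (-0.11, adjusted p = 0.111). With median centring Slc22a3 turned to -0.10 and Slc22a5 gave -0.11, neither passing, while Slc22a4 gave -0.30 and passed. From the processed signals Slc22a6 (0.10) and Slc22a2 (-0.12) did not pass. The genes of the second basolateral anion exchanger, Slc22a8 (-0.01), the urate exchanger, Slc22a12 (-0.05), and the lipocalin receptor, Slc22a17 (0.03), did not pass. Slc22a18, an imprinted gene, gave -0.01 by its brighter probe and -0.55 ± 0.053 by its dimmer one (SD, n = 3, adjusted p = 0.000411).

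The vitamin and nucleoside carriers held several of the remaining calls. The reduced folate carrier Slc19a1 read 12.36, 12.01 and 12.02 in the channel labelled Scriptaid, against 11.35, 11.50 and 11.35 in the channel labelled Nullscript. It was higher in every replicate, at 0.73 ± 0.26 (SD, n = 3, adjusted p = 0.00398), and its second probe gave 0.05 and did not pass. The thiamine transporter Slc19a2 read 12.03, 11.81 and 11.77 in the channel labelled Scriptaid, against 12.29, 12.25 and 12.27 in the channel labelled Nullscript, and was lower at -0.40 ± 0.13 (SD, n = 3, adjusted p = 0.00404). The remaining gene of that family, Slc19a3, also a thiamine transporter, did not pass (-0.01). Of the ascorbate transporters, Slc23a2 was lower at -0.26 ± 0.084 (SD, n = 3), which did not pass without replicate 3 (-0.26, adjusted p = 0.0537), and Slc23a1, the epithelial one, gave -0.0041 and did not pass.

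All 4 equilibrative nucleoside carriers of the Slc29a family passed, 2 in each direction, against 45.4% of all genes passing. Slc29a1, the main one of the plasma membrane, read 10.59, 10.29 and 10.45 in the channel labelled Scriptaid, against 11.21, 10.88 and 10.85 in the channel labelled Nullscript, and the log2 ratio was -0.53 ± 0.12 (SD, n = 3, adjusted p = 0.00127). Slc29a2 read 9.53, 9.23 and 9.27 in the channel labelled Scriptaid, against 9.05, 8.98 and 8.90 in the channel labelled Nullscript, and the log2 ratio was 0.37 ± 0.12 (SD, n = 3, adjusted p = 0.00418). Both genes differed in the same direction in each replicate, and neither had overlapping channels. Slc29a4, a carrier of monoamines, was lower at -0.31 ± 0.070 (SD, n = 3). The lysosomal Slc29a3 was higher at 0.19 ± 0.059 (SD, n = 3) by its brightest probe alone, and it did not pass without replicate 3 (0.20, adjusted p = 0.0682) or with the mean over its probes (0.08, adjusted p = 0.0639). The concentrative carrier Slc28a3 passed as lower at -0.10, but not once any replicate was left out (-0.10 to -0.12), with median centring (-0.04) or with slide as a block (-0.11).

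In the smaller families few genes passed, against 45.4% of all genes. Of the Slc10a bile acid family, Slc10a4 alone was lower, a gene best known from cholinergic and monoaminergic neurons, while the other 4 ranged from -0.05 to 0.03. It read 7.26, 7.23 and 7.10 in the channel labelled Scriptaid, against 8.14, 7.93 and 8.04 in the channel labelled Nullscript, a log2 ratio of -0.84 ± 0.13 (SD, n = 3, adjusted p = 0.000464), and a second probe passed at -0.23 (-0.39 from the processed signals). The mean over both was -0.54. The steroid sulfate carrier Slc10a6 gave 0.0034. Of the Slc17a family, the lysosomal sialic acid exporter Slc17a5 was lower at -0.35 ± 0.11 and the vesicular glutamate transporter Slc17a7 at -0.19 ± 0.031 (SD, n = 3 each). The renal urate carriers Slc17a1 (0.03) and Slc17a3 (-0.11, adjusted p = 0.0562) did not pass. With median centring Slc17a1 turned to -0.21 and passed as lower (adjusted p = 0.0242), and Slc17a3 passed as lower with the replicate as a block (adjusted p = 0.0415), with ratios scaled between arrays (-0.10, adjusted p = 0.0465) and with the probes of each gene averaged (adjusted p = 0.0409). Of the Slc13a family, the sulfate carrier Slc13a4 passed as lower at -0.14, but not in any fit of 2 replicates (-0.09 to -0.16), with median centring (-0.15) or with slide as a block (-0.13). The dicarboxylate carrier Slc13a3 (-0.05) and the citrate carrier Slc13a5 (-0.01) did not pass, but Slc13a3 passed as lower from the processed signals (-0.23, adjusted p = 0.00979) and with median centring (-0.28, adjusted p = 0.00977). None of the 3 tested peptide carriers passed by its brightest probe, and the lysosomal Slc15a4 gave -0.09. Slc15a1, the peptide carrier of the intestine, is the member without a tested probe, since its only one was not well above background on any array in either channel. Of the 5 other probes not tested, those of Slc16a14, Slc17a3 and Slco5a1 were likewise never well above background, and each of these genes was read by another probe.

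**Figure D3:**
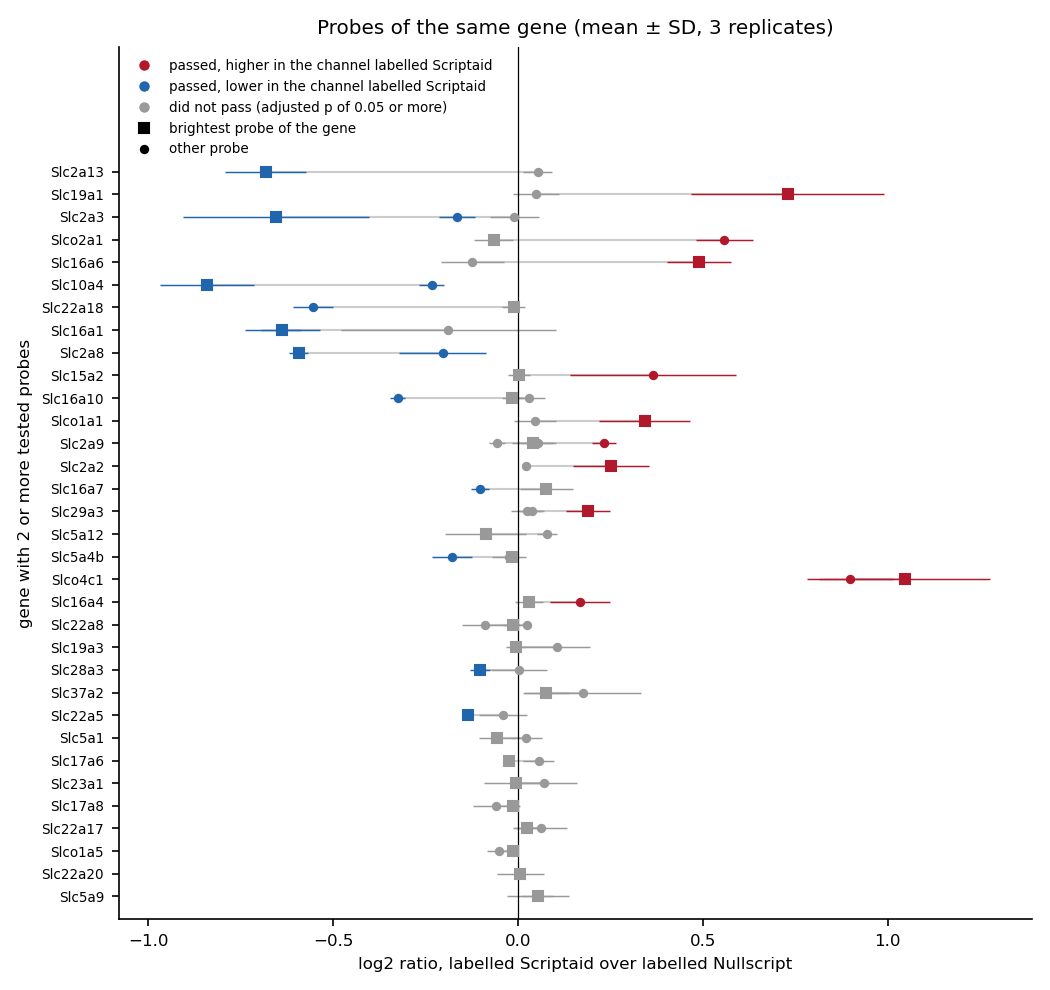
Mean log2 ratio (horizontal axis, bars 1 SD over 3 replicates) of every tested probe of the 33 transporter genes with 2 or more such probes (vertical axis). Squares are the brightest probe of a gene, circles the others, and the grey line spans them. The widest gaps are those of Slc2a13 and Slc19a1, where the brightest probe passed and the other lay near 0.

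Probes of the same gene often differed in their call. Of 33 genes with at least 2 tested probes, 3 had all probes passing the same way (Slc10a4, Slc2a8 and Slco4c1), 12 had none passing and 18 had some passing. None of these 33 genes had probes that passed in opposite directions. Over all probes 45.2% passed in either direction, and the agreement of probes was not counted over all genes. In 8 of the transporter genes a dimmer probe passed while the brightest did not, among them the 3 named above, Slco2a1, Slc22a18 and Slc5a4b. The aromatic amino acid carrier Slc16a10 was lower by such a probe at -0.33 ± 0.021, and the urate carrier Slc2a9 was higher by one at 0.23 ± 0.032 (SD, n = 3 each). This Slc2a9 probe gave 0.72 from the processed signals, and with median centring it gave 0.03 and did not pass (adjusted p = 0.587). The renal peptide carrier Slc15a2 was higher by one at 0.37 ± 0.22 (SD, n = 3), which did not pass without replicate 2 (0.39, adjusted p = 0.0698) or with median centring (0.27, adjusted p = 0.113). The dimmer probes of Slc16a7 (-0.10) and Slc16a4 (0.17) passed with all replicates, but both missed the threshold without replicate 2 (-0.12 and 0.19) and without replicate 3 (-0.09 and 0.12), and Slc16a7 also without replicate 1 (-0.10). With median centring neither passed, and Slc16a4 turned to -0.034; neither passed from the processed signals (-0.11 and 0.34), and Slc16a7 did not with the replicate as a block (adjusted p = 0.208). Of the genes called by their brightest probe, 10 had another tested probe that did not pass. These were Slc16a1 and Slc16a6, described above, Slc2a13 (-0.68 and 0.05), Slc2a3 (-0.65, -0.16 and -0.01, the middle one passing) and Slc19a1 (0.73 and 0.05). The others were Slc2a2 (0.25 and 0.02), Slco1a1 (0.34 and 0.05), Slc29a3 (0.19, 0.04 and 0.02), Slc22a5 (-0.14 and -0.04) and Slc28a3 (-0.10 and 0.0020). With the mean over a gene's probes in place of the brightest, Slc2a13 (-0.31), Slc2a3 (-0.28), Slc19a1 (0.39), Slc16a6 (0.18), Slc2a2 (0.14) and Slc22a5 (-0.09) passed at smaller ratios. Which transcripts the probes of a gene read was not tested.

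Of 14 pairs of transporter genes that follow each other on a chromosome in the RefSeq order, 2 had members that passed in opposite directions. On chromosome 11, Slc16a11 was lower at -1.04 and the next gene, Slc16a13, was higher at 0.39. On chromosome 17, Slc22a3 was higher at 0.15 and the next gene, Slc22a2, was lower at -0.11, the pair of small calls that did not hold in all fits of 2 replicates. In 7 further pairs 1 of the genes passed, among them Slco4c1 (1.05) beside Slco6c1 (-0.06) and Slco1a6 (0.36) beside Slco1a5 (-0.01). In the other 5 pairs neither passed. Of all genes, 45.4% passed in either direction, and neighbouring pairs over all genes were not counted.

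The GC box, a motif bound by Sp factors, was present in 23 of 31 promoters (74.2%) of the 21 lower transporter genes with an entry, in 5 of 15 (33.3%) of the 12 higher ones and in 20 of 64 (31.2%) of those that did not pass. Over all genes tested, the shares were 62.3% of promoters of lower genes, 57.5% of higher genes and 39.8% of genes that did not pass, and 35.7% of all 32851 promoters of this length held the box. The median number of CpG sites per promoter was 17 for lower and 5 for higher transporters, against 20 and 19 for all lower and higher genes. These are counts of letters in windows, and several promoters can belong to the same gene. Of the printed promoters, those of Slco4a1, Slc2a5, Slco4c1 and Slc19a1 held the box and those of Slc16a11 and Slco2b1 did not, so that promoters with and without the box occurred in both directions. The E-box CACGTG reads the same on both strands, and carbohydrate-sensing factors bind it. It was in 9.09% of transporter promoters, 8.5% of promoters of all genes tested and 7.15% of all promoters. The cyclic AMP element TGACGTCA was in 0 of 110 transporter promoters, in 2.43% of promoters of all genes tested and in 1.79% of all promoters.

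**Figure D4:**
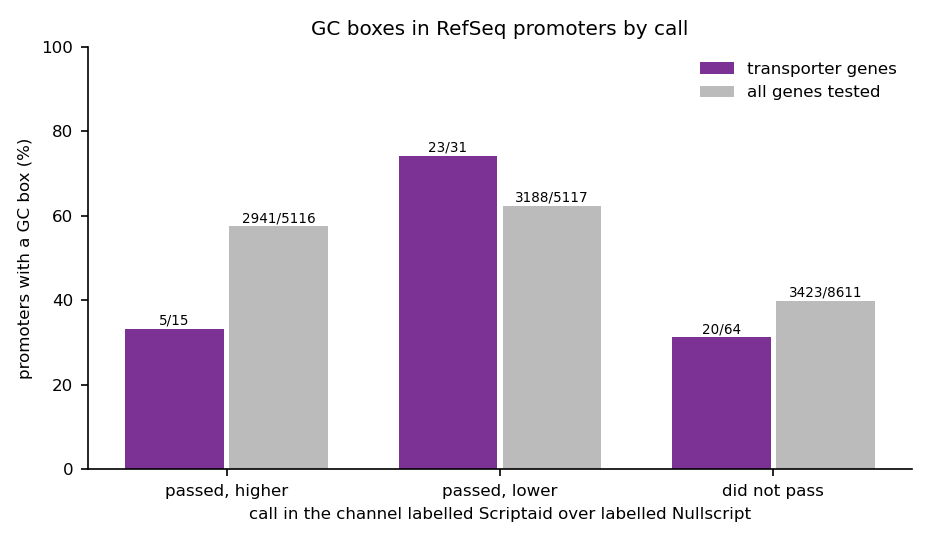
Share of RefSeq promoters that hold the GC box (vertical axis, percent) by the call of their gene (horizontal axis), for transporter genes (purple) and all genes tested (grey), with the counts above the bars. Lower transporters stand at 74.2% and higher ones at 33.3%, while all lower and all higher genes stand at 62.3% and 57.5%.

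Glycolytic enzymes use the sugar these carriers bring in. Of 18 genes of glycolysis and lactate, 9 were lower, 3 were higher and 6 did not pass, against 23.2% of all genes lower and 22.2% higher, with a median log2 ratio of -0.18 against -0.01 for all genes. The probes of 7 of the 18 genes were saturated on some arrays, 4 of them among the lower genes. Of the 11 genes with no saturated spot, 5 were lower, 3 were higher and 3 did not pass, with a median of -0.04. The hexokinase gene Hk1 was lower at -0.58 ± 0.13, the phosphofructokinase gene Pfkp at -0.66 ± 0.053 and the enolase gene Eno2 at -0.68 ± 0.22 (SD, n = 3 each). On the higher side were Hk2 (0.25 ± 0.10), Pfkl (0.50 ± 0.11) and Pfkfb3 (0.36 ± 0.069, SD, n = 3 each), so that different forms of hexokinase and of phosphofructokinase passed in opposite directions.

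Of 19 tested genes for partners and regulators of transporters, 8 were higher (42.1%), 4 were lower (21.1%) and 7 did not pass. Over all genes, 22.2% were higher and 23.2% lower. Txnip, an arrestin that takes glucose transporters off the cell surface, was lower at -1.01 ± 0.083, and Arrdc4, a relative with a like role, was higher at 0.56 ± 0.17 (SD, n = 3 each). Txnip is also 1 of the 7 genes that HDAC inhibitors are known to raise. The glucose-responsive factors Mlxip and Mlxipl were lower at -0.64 ± 0.095 and -0.29 ± 0.040 (SD, n = 3 each). Emb, a chaperone of monocarboxylate carriers, was higher at 0.23, and Bsg, the chaperone of Slc16a1 and Slc16a3, gave -0.20 and did not pass (adjusted p = 0.0502). The scaffold genes Pdzk1 and Slc9a3r1, whose proteins hold organic ion carriers at the brush border, passed in opposite directions at 0.57 ± 0.11 and -0.92 ± 0.12 (SD, n = 3 each), and Pdzk1 is also among the proximal tubule markers below. Of 9 organic ion efflux genes, Abcc1 (0.33 ± 0.12) and the proton-cation exchanger Slc47a1 (0.30 ± 0.044, SD, n = 3 each) were higher and none was lower. The share higher, 22.2%, was that of all genes.

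**Figure D5:**
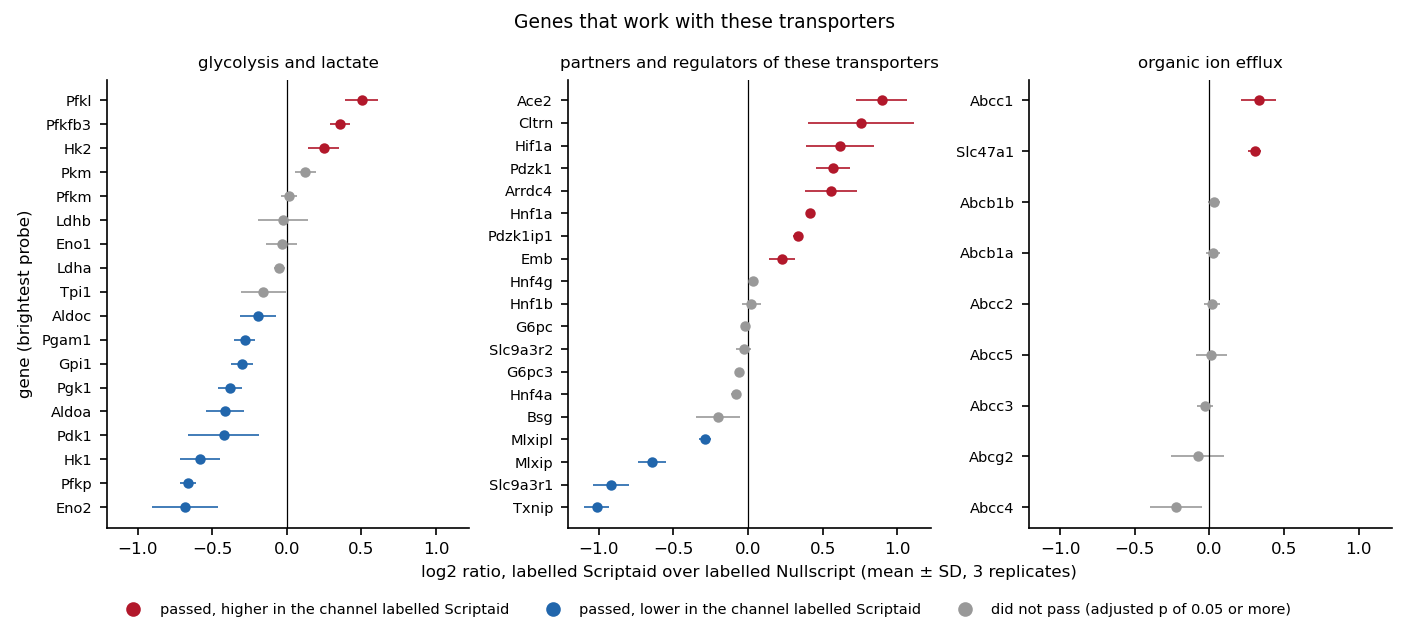
Mean log2 ratio (horizontal axis, bars 1 SD over 3 replicates) of the genes of glycolysis and lactate (left), of transporter partners and regulators (centre) and of organic ion efflux (right), each read by its brightest probe. The left panel has 9 blue and 3 red points, the centre panel 4 blue and 8 red, and the right panel 2 red and no blue.

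Lists of cell type markers were read in the same way, and over all genes 22.2% were higher and 23.2% lower. Of 10 proximal tubule markers, 5 were higher and 3 lower, with a mean log2 level over the list, as the range over replicates, of 9.23 to 9.56 in the channel labelled Scriptaid, against 9.19 to 9.50 in the channel labelled Nullscript. The ranges for the next lists are given in the same way and order. Kidney progenitor and bud markers were higher in 10 of 13 and lower in none (11.38 to 11.44 against 10.89 to 10.92), and endothelial markers were higher in 10 of 11 and lower in none (10.84 to 10.92 against 9.97 to 10.17). Leukocyte markers were higher in 5 and lower in 1 of 8 (9.51 to 9.63 against 9.0 to 9.23), and neuronal markers were higher in 1 and lower in 6 of 8 (9.45 to 9.66 against 9.76 to 10.03). Red blood cell markers were lower in 5 of 9 and higher in none (11.01 to 11.09 against 11.16 to 11.27), with 2 of the 9 saturated on some arrays. Liver markers were lower in 1 of 5 and higher in none (7.30 to 7.59 against 7.36 to 7.60), and Ttr among them was well above background on 3 arrays in the channel labelled Scriptaid and on 1 in the channel labelled Nullscript. Adrenal and gonad markers were lower in 1 of 5 and higher in none (8.66 to 8.98 against 8.75 to 8.99). Muscle markers were higher in 1 and lower in 2 of 4 (8.75 to 8.98 against 8.78 to 9.04). The part of these cell types in the transporter ratios was not tested.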

How the data were processed

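Gene expression was measured on 6 two-colour arrays of explanted embryonic kidneys, with the drug of each channel taken from the source and dye fields. The deposited scanner files hold spot and local background intensity in both channels, written by Agilent Feature Extraction 9.1.3.1 per the file headers. They also hold log10 ratios, and the deposited series value table repeats these as labelled Scriptaid over labelled Nullscript within 4.82e-06, with column medians of -0.00959 to -0.00136.

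Mean intensities were corrected with normexp (offset 50) and normalised within arrays by loess in limma 3.58.1 (R 4.3.3). Control spots had weight 0, outlier spots were left out and saturated spots kept, although no transporter probe was saturated. Spots of a probe, and then the 2 arrays of a replicate, were averaged. Channel levels were taken after loess and Aquantile. A probe was tested if well above background on at least 3 arrays for either drug (39407 probes, 39405 of them in 2 or more replicates). The mean of 3 replicates was tested with lmFit and eBayes, with Benjamini-Hochberg adjustment over all probes tested and a threshold of 0.05. The fit was first tested on simulated data. A gene was read by its brightest probe. Of the probes, 22951 were named by accession, 6659 by symbol and 3109 by an older symbol through the reference table, and 8455 kept the file's name. All 107 transporter genes were in that table, and 3 probes with another file name that map to one of them were not taken.

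The pairing of arrays comes from the labels, which number 3 biological replicates. Within a replicate, the deviations of both arrays from their orientation mean correlated at 0.615, 0.131 and 0.0125, and the consensus correlation was 0.119. The series text mentions swapped dyes on 2 of 4 arrays, while the 6 arrays were oriented here by their own dye fields.

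The transporters and all gene lists were chosen with earlier results of these data known. The genes named are, per role group, up to 4 that passed with 1 sign in all replicates and had the widest ratios, the brightest gene, and others fixed by name for glucose, lactate or renal organic ion transport. Slc2a8, Slc2a10, Slc5a3, Slc5a4b, Slc16a4, Slc16a5, Slc16a13, Slc19a3, Slc22a18, Slc28a3, Slco1a1, Slco1a5, Slco1a6, Slco6c1, and the genes named only for a dimmer or untested probe, were named after their values were seen. The values of 1 gene are not reported here, and it stays in the counts. Alternatives covered the background correction, scaling, filters, saturation, gene summary, blocks for replicate and slide, the dyes, each replicate left out and the series value table.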

Additional observations from a re-analysis of the deposited data

Results flagged for a closer look

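Slc5a3, the sodium-coupled myo-inositol carrier, differed between the dye orientations. Its log2 ratio averaged -0.088 where Cy3 marked Scriptaid and 0.18 where Cy5 did, 3 arrays each, a difference of -0.27 (dye term of limma, adjusted p = 0.0369). Averaged over both it was 0.05 and did not pass. It was the only tested transporter probe with a dye term past the threshold, against 3.82% of all probes. In 9 transporter probes every array of one orientation had the opposite sign to every array of the other. Such probes were not counted over all probes. Groups of 3 arrays were not tested for outlying samples.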

How the results depend on the processing

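Over 70 log2 ratios and 17 alternatives, 1012 of 1151 values kept their direction and their side of the threshold. Of the rest, 92 no longer passed and 13 passed in addition. A further 4 changed direction with a pass before or after, and 30 changed sign where neither value passed. Of the 39 transporter genes that passed, 24 did so under every alternative run for them, among them Slco4a1, Slc2a5, Slc2a6, Slc16a11, Slc16a1, Slco4c1, Slco2b1, Slco3a1, Slc19a1 and Slc29a1. Some alternatives could not change these ratios, so that their agreement was largely fixed in advance. Both changes of the filter and 1 probe per gene reused the ratios, and no transporter probe was saturated. Kept were 70 of 70 values with no filter and 70 of 70 with saturated spots left out. The stricter filter kept 64 of 64, and 1 probe per gene 57 of 57. The series value table repeats the scanner's ratios, and it and the processed signals each kept 62 of 70.

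With each array centred on its median in place of loess, 3 results changed direction with a pass before or after. Another 7 changed sign where neither value passed. The 3 with a pass were Slc22a3 (-0.10, adjusted p = 0.107), Slc17a1 (-0.21, adjusted p = 0.0242) and a dim probe of Slc16a4 (-0.034, adjusted p = 0.499). With the mean over a gene's probes, Slco2a1 turned to 0.25 (adjusted p = 0.00123). The causes were not tested.

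In fits that left out 1 replicate, transporter genes higher numbered 11 to 16 and lower 15 to 20, and probes 15 to 20 and 19 to 27. Over all genes they numbered 4175 to 5504 and 3848 to 5612, and over all probes 6337 to 8611 and 5331 to 7782. Without replicate 3 the counts of lower genes and probes fell by more than 1.5 times, to 15 and 19 among transporters and to 3848 and 5331 in all. The lowest count of each came in that fit. Replicate 3 alone was on slide 2, and 13 of the 39 calls did not pass without it. With the 6 arrays fitted with the replicate as a block for the pairing, 25 transporter probes were higher and 32 lower, and 19 and 25 genes. Over all probes these counts were 9855 and 8985, and over all genes 6228 and 6398. Among the 70 ratios this block ended the calls of Slc2a4, Slc22a2 and a dimmer Slc16a7 probe, added Slc17a3 and changed no other. With slide as a block, 19 transporter probes were higher and 23 lower, and 14 and 17 genes. Over all probes the counts were then 7702 and 6547, and over all genes 4919 and 4787. From the scanner's processed signals, 22 transporter probes were higher and 35 lower, and 15 and 27 genes. Over all probes that gave 8815 and 9168, and over all genes 5589 and 6455. No scaling moved the median of all probes by more than 0.04 (lowest -0.0385). Of 147 tested transporter probes, 133 were well above background on every array for both drugs. Requiring this left 14 transporter genes higher and 23 lower, against 5769 and 6072 of all genes.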
